A study of Mus musculus with 16 samples.

Results

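The 9 genes followed here belong to the NF-kappaB system, and they were looked up in peak lists of 2 transcription factors, Bcl11a and Spi1, in MPP3 cells of mouse bone marrow. They were 5 subunit genes (Nfkb1, Nfkb2, Rela, Relb and Rel) and 4 genes that restrain or modulate the pathway (Nfkbia, Nfkbie, Nfkbiz and Tnfaip3), out of 21883 protein-coding genes. The genes were chosen by name, and a gene's locus was its body in the mm10 mouse genome with 10 kb on either side. Every peak at those loci was taken from all 16 lists and merged with any other peak sharing at least 1 bp, which gave 24 of the 34234 merged regions in the genome. The libraries were made by CUT&Tag, in which a transposase tethered to an antibody tags the DNA near the bound factor. MPP3 cells are multipotent progenitors with a myeloid bias. Bcl11a was profiled in WT-iMOS mice in 3 libraries labelled T1 and 3 labelled T2. Spi1 was profiled in the same number of WT-iMOS T1 and T2 libraries and in 2 T1 and 2 T2 libraries of KO-iMOS mice. The design text names the function of Bcl11a in MPP3 as the question. Neither the deleted gene, its promoter or Cre, the meaning of iMOS, T1 and T2, nor the tag 3m in every title is spelled out by the labels. No Bcl11a library from KO-iMOS mice was used here. With the deleted gene not given, the deletion itself could not be checked. Nothing in the labels says whether replicates came from separate mice, so p-values measure the spread between these libraries, which may be technical.

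NF-kappaB factors are dimers of Rel-domain proteins that bind kappaB sites in DNA. In resting cells they are held inactive by IkB inhibitors, and signals from Toll-like, cytokine and antigen receptors lead the IKK kinase complex to mark those inhibitors for destruction. Several inhibitors, among them Nfkbia and Tnfaip3, are themselves targets of the pathway and shut it down again. In blood progenitors the pathway is known for inflammatory signalling and a shift toward myeloid output. Spi1, of the ETS family, is needed to make myeloid and B cells, and Bcl11a is a zinc finger repressor needed for lymphoid development and known for silencing fetal globin genes.

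The DNA just upstream of 5 of the genes is shown because a merged region called in at least 3 libraries lay over their annotated start. The sequences are RefSeq's on GRCm38.p6 (mm10), and each runs 5′ to 3′ over the 250 bases before the start. Capitals mark matches, on either strand, to the kappaB consensus (3 G, a purine, any 2 bases, 2 pyrimidines and 2 C) and, in Rel, to GAGGAAGT. That 8-letter motif holds GAGGAA, the core of Spi1 sites.
Nfkb2 promoter, chr19:46304487-46304736, strand +: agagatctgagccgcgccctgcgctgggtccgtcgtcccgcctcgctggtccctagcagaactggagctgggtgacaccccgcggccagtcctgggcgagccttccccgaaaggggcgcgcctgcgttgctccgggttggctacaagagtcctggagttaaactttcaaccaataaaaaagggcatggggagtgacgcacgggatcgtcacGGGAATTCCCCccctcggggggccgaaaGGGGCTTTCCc
Rel promoter, chr11:23770970-23771219, strand -: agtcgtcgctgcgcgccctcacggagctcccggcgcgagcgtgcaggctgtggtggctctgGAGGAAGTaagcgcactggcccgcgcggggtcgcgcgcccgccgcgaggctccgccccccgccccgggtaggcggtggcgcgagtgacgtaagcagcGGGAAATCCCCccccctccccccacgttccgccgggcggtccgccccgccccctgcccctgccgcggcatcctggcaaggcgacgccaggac
Nfkbia promoter, chr12:55492648-55492897, strand -: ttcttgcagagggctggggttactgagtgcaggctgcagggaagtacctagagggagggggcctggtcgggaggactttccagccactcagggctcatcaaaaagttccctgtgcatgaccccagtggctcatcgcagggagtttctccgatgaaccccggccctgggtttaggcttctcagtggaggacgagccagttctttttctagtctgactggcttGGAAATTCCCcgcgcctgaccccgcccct
Nfkbie promoter, chr17:45555450-45555699, strand +: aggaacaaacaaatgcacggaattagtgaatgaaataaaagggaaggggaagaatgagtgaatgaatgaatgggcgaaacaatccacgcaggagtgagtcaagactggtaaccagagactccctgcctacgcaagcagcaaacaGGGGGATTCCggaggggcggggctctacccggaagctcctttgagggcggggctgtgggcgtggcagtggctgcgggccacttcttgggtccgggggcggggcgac
Tnfaip3 promoter, chr10:19015411-19015660, strand -: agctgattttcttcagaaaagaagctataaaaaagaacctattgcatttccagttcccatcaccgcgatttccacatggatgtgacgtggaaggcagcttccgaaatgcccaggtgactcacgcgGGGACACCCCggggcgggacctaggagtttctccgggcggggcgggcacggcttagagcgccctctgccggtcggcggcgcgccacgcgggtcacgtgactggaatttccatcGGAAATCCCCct
All 5 sequences held a kappaB match, which 7.25% of 32851 promoters of the same length held. In Nfkbia the match lay 29 to 20 bases before the start, in Nfkbie 106 to 97 bases before it and in Rel 92 to 82 bases before it. Nfkb2 had a pair of places with matches, at 39 to 29 and 11 to 2 bases, and Tnfaip3 likewise at 125 to 116 and 12 to 3 bases. Rel was the one of the 5 with GAGGAA and with GAGGAAGT, at 189 to 182 bases, where the longer motif contains the shorter. GAGGAA occurred in 23.3% and GAGGAAGT in 2.44% of all promoters. TGACCA, a core linked to Bcl11a, occurred in 11.4% of all promoters and in none of these 5. The promoter table held 6 of the 9 genes. Rela's sequence had no match to any of these motifs, and Nfkb1, Relb and Nfkbiz had no entry.

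The lists held 2719 to 20241 peaks, and 9.30% to 55.5% of all genes had a peak at the locus, depending on the library. The KO-iMOS lists were long (6372 to 20241 peaks, against 5068 to 12261 for Spi1 in WT-iMOS), and their narrowest peaks measured 250 to 321 bp against 202 to 220 bp. Peak names in the KO-iMOS lists begin with PWT for T1 and PKO for T2. In WT-iMOS they begin with BWG for T1 and BMG for T2 for Bcl11a, and with PWG and PMG for Spi1. The prefix thus changes with T in every arm, which the labels do not explain. Whether the T1 and T2 lists of an arm are of 1 genotype cannot be told from the sources used here. Every value below by genotype or by T rests on the labels. With no read counts in the lists, depth is unknown, and deeper sequencing and more binding cannot be told apart as sources of a longer list. Loci of MPP3 and myeloid genes carried Spi1 in at least 2 WT-iMOS libraries in 6 of 7 cases, those of B cell genes in 2 of 4 and those of T cell genes in 0 of 3. The counts were 2 of 3 for megakaryocyte genes, 1 of 3 for erythroid genes and 1 of 3 for stromal genes. A peak does not measure expression, so this does not test the sort.

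Spi1 was present at 7 of the 9 loci in at least 2 of the 6 WT-iMOS libraries and at all 9 in at least 2 of the 4 KO-iMOS libraries. Over all genes those shares were 33.5% and 49.8%. Bcl11a was present at 7 of the 9 in at least 2 of its 6 libraries, against 25.4% of all genes. It was at 4 of the 9 when either T1 replicate 2 or T1 replicate 3 was left out. The share of all genes ranged from 17.6% to 24.7% when single Bcl11a libraries were left out. In each of the 3 arms together (Bcl11a, Spi1 in WT-iMOS, Spi1 in KO-iMOS) 5 loci had at least 2 libraries: Nfkb2, Relb, Rel, Nfkbie and Tnfaip3. That held for 17.3% of all genes. The member loci were of ordinary length, with a median of 34501 bp against 37170 bp for all genes, and 3 of them (Nfkb1, Nfkbia and Tnfaip3) overlapped no other protein-coding gene. With every list shortened to its strongest 2719 peaks, the length of the shortest, Bcl11a was still at 5 of the 9 loci in at least 2 libraries, Spi1 in WT-iMOS at 6 and Spi1 in KO-iMOS at 5, against 14.5%, 12.9% and 12.5% of all genes. All 24 merged regions had a Spi1 peak in some library and 8 also had a Bcl11a peak, against 91.5% and 28.4% of all merged regions. Within WT-iMOS, 3 regions (at Rela, Nfkbia and Nfkbiz) had Bcl11a and no Spi1, the one at Rela in 1 Bcl11a library. The share of all merged regions with that pattern was not counted, so whether 3 of 24 is usual cannot be told. Of the 24 regions, 17 were called in at least 3 libraries, 1 in 2 and 6 in a single library.

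**Figure D1:**
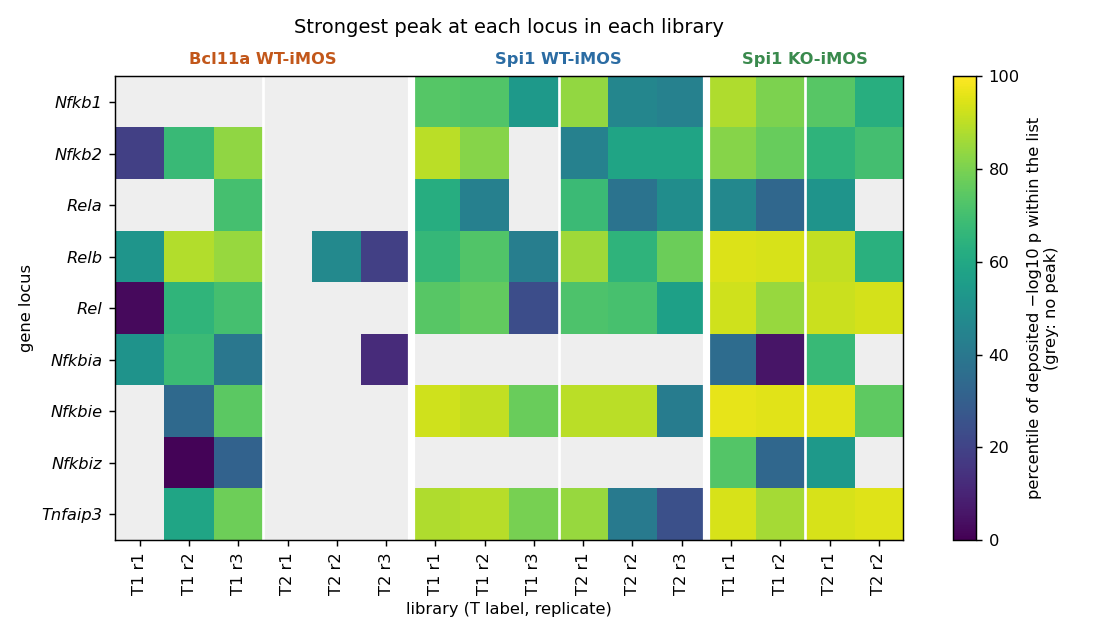
Each row is a gene locus and each column 1 of the 16 libraries, grouped by target and genotype and split by T label. Colour gives the percentile of the strongest deposited −log10 p within that library's own list, and grey means no peak. Nfkb1 is grey in all 6 Bcl11a libraries, and Nfkbia and Nfkbiz are grey in all 6 Spi1 WT-iMOS libraries and coloured in 3 of 4 KO-iMOS ones.

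Among the subunit genes, Relb had the most regular occupancy. Relb encodes the subunit of the non-canonical arm that pairs with the Nfkb2 product. Its main region, chr7:19628414-19629379, lay inside the gene with its centre 542 bp from the higher-coordinate end, and it was called in 15 of 16 libraries. The authors' deposited fold enrichment there was 4.49, 6.02 and 5.65 in the Bcl11a T1 libraries and 5.21 and 4.18 in the T2 libraries that had a peak. Spi1 in WT-iMOS gave a lowest, median and highest deposited fold of 4.75, 6.70 and 9.30, and in KO-iMOS the 4 values were 11.0, 11.0, 9.17 and 7.31. These folds are relative to each library's own background, so they are set side by side with no test between libraries. The single library without a peak was Bcl11a T2 replicate 1. A second Relb region, chr7:19604063-19604746, lay 1471 bp outside Relb within Clasrp and was called with Spi1 in 3 WT-iMOS libraries and 1 KO-iMOS library.

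Rel encodes c-Rel, the subunit prominent in lymphoid and myeloid cells. Its main region, chr11:23769769-23771636, covered the annotated start and was called with Bcl11a in the 3 T1 libraries and with Spi1 in all 10 Spi1 libraries. The authors' deposited fold was 3.74, 5.27 and 5.50 for Bcl11a. It was 3.98, 5.96 and 6.99 (lowest, median and highest) for Spi1 in WT-iMOS and 7.16, 6.62, 7.28 and 7.87 in KO-iMOS. A library's own peak reached the start in 3 Bcl11a libraries and, for Spi1, in 6 WT-iMOS and 3 KO-iMOS libraries. This was the widest region of the set at 1868 bp. Spi1 peaks in it had a median width of 1341 bp in WT-iMOS and 1667 bp in KO-iMOS. The strongest Spi1 summit in each library lay from 327 bases upstream to 571 bases downstream of the start in WT-iMOS and 369 to 572 bases downstream in KO-iMOS. The strongest Bcl11a summits lay from 205 bases upstream to 2 bases downstream. Of the strongest summits in the 13 libraries, 4 fell in the Rel promoter sequence shown above.

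Nfkb2 encodes the precursor of the non-canonical subunit. A single region, chr19:46304082-46304988, carried all its peaks and covered 1 of 3 annotated starts. Bcl11a was there in the 3 T1 libraries, with a deposited fold of 3.55, 4.39 and 5.39, and in none of the T2 libraries. Spi1 was there in 5 of 6 WT-iMOS libraries, at 9.53 and 8.07 in T1 and 5.26, 6.47 and 6.22 in T2, and in all 4 KO-iMOS libraries at 6.69, 7.32, 5.97 and 7.16 in the authors' deposited values. A library's own peak reached the start in 2 Bcl11a libraries and, for Spi1, in 1 WT-iMOS and 1 KO-iMOS library. The strongest Bcl11a summit in each library lay 260 to 246 bases before the start and the strongest WT-iMOS Spi1 summits 368 to 176 bases before it. Of 12 strongest summits 7 fell in the sequence shown.

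Nfkb1 encodes the precursor of the canonical DNA-binding partner of Rela, and it was the one locus with no Bcl11a peak in any library. It was also the longest locus, at 127315 bp, and held 8 of the 24 regions. The region shared by most libraries, chr3:135596747-135597368, lay inside the gene, 12402 bp from its lower-coordinate end. Spi1 was called there in all 6 WT-iMOS libraries, with a lowest, median and highest deposited fold of 4.97, 5.92 and 8.63, and in 3 of 4 KO-iMOS libraries at 8.55, 7.96 and 7.14. The 4 other Nfkb1 regions in at least 3 libraries had Spi1 in 1 WT-iMOS library each. They were chr3:135602501-135603214, chr3:135608055-135608755 and chr3:135628339-135629248, each in 3 KO-iMOS libraries, and chr3:135686546-135687222, in all 4. The deposited fold at the last was 3.96, 5.63, 6.01 and 5.85 in KO-iMOS and 3.89 in the single WT-iMOS library. With lists of equal length, the last had Spi1 in 1 KO-iMOS library and the others of these 4 in 0 libraries.

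Rela encodes the main activating subunit of the canonical arm. Its gene body had little: the region at its annotated start, chr19:5637049-5637680, was called in 1 Bcl11a T1 library and 1 Spi1 KO-iMOS library. The other region, chr19:5648645-5649216, lay 511 bp past the higher-coordinate end, in a stretch that also belongs to the Sipa1 locus. Spi1 was there in 5 of 6 WT-iMOS libraries, at a deposited fold of 5.41 and 5.24 in T1 and 6.53, 5.28 and 5.66 in T2, and in 3 of 4 KO-iMOS libraries at 5.01, 5.22 and 5.65. Which of the neighbouring genes the peak belongs to cannot be told from position.

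**Figure D2:**
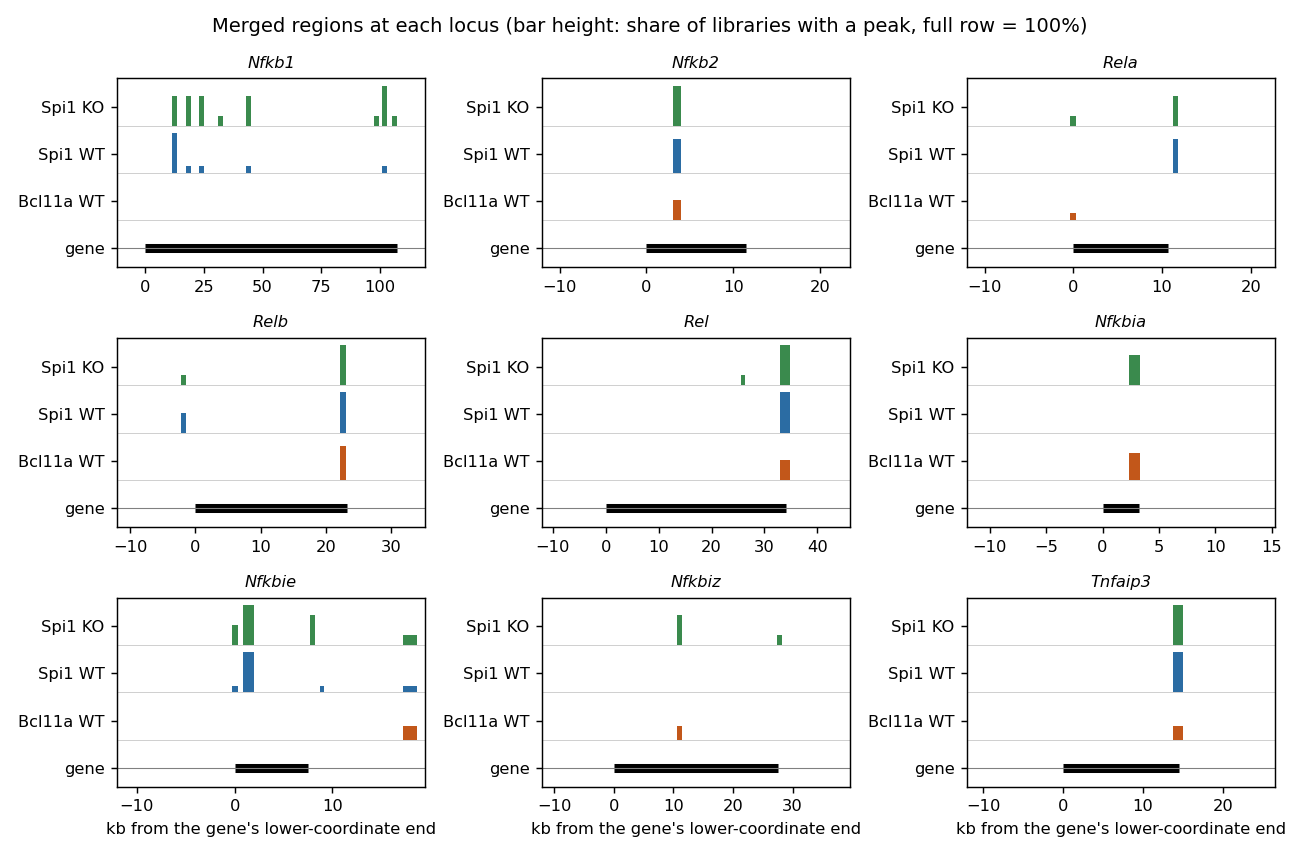
Each panel is a gene with the x axis in kb from its lower-coordinate end and the gene as a black bar. Coloured bars are the merged regions, drawn at least a 60th of the plotted gene and flank in width, and bar height is the share of that arm's libraries with a peak. Relb, Rel, Nfkb2 and Tnfaip3 have 1 dominant region that all 3 arms share. Nfkb1 has 1 region with Spi1 in 100% of WT-iMOS and 75% of KO-iMOS libraries, and other scattered regions seen mostly with Spi1 in KO-iMOS.

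Among the inhibitors, Tnfaip3 and Nfkbie had Spi1 in every Spi1 library. Tnfaip3 encodes A20, a ubiquitin-editing enzyme that ends NF-kappaB signalling. Its one region, chr10:19014707-19015976, covered an annotated start. A library's own peak reached a start in 2 Bcl11a libraries and, for Spi1, in 5 WT-iMOS and 4 KO-iMOS libraries. The authors' deposited fold was 4.95 and 6.23 for Bcl11a in T1 replicates 2 and 3. For Spi1 it was 4.85, 8.05 and 9.52 (lowest, median and highest) in WT-iMOS and 10.3, 9.59, 10.7 and 11.2 in KO-iMOS. The strongest summits lay 47 to 50 bases after the start for Bcl11a and 13 to 255 bases after it for Spi1, so none of these fell in the upstream sequence shown.

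Nfkbie encodes the inhibitor IkB-epsilon. Its strongest region, chr17:45556544-45557638, lay inside the gene, with the strongest WT-iMOS summits 1255 to 1476 bases past the start. Spi1 was there in all 10 libraries and Bcl11a in none. The deposited fold for Spi1 was 4.78, 7.58 and 8.78 (lowest, median and highest) in WT-iMOS and 6.81, 7.53, 7.64 and 5.29 in KO-iMOS. Within the lists it ranked high, at a median percentile of 89.7 in WT-iMOS and 95.5 in KO-iMOS. The start itself, in chr17:45555469-45556089, had Spi1 in 1 WT-iMOS library and in both KO-iMOS T1 libraries. The Bcl11a count of 2 at the Nfkbie locus came from chr17:45572935-45574327, which is 9766 bp outside the gene and over Hsp90ab1. A region within Slc35b2, chr17:45563412-45563974, had Spi1 in 3 KO-iMOS libraries and no WT-iMOS library.

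Nfkbia encodes IkB-alpha, the classic feedback inhibitor, and Nfkbiz encodes IkB-zeta, a nuclear IkB protein that acts on transcription of secondary response genes. These were the only members with Bcl11a in WT-iMOS and no Spi1 there. At Nfkbia, chr12:55491710-55492738 covered the start and had Bcl11a in 4 of 6 libraries, with a deposited fold of 4.21, 4.20 and 3.63 in T1 and 4.44 in T2 replicate 3. Spi1 was there in 3 of 4 KO-iMOS libraries, at 4.86 and 3.83 in T1 and 6.29 in T2 replicate 1. It was the merged region that covered the start: a library's own peak reached it in 1 Bcl11a library and 0 Spi1 libraries. Both factors' strongest summits lay inside the gene, 148 to 404 bases past the start for Bcl11a and 148 to 468 for Spi1. At Nfkbiz, chr16:55822162-55822565 lay within the gene. Bcl11a was called there in T1 replicates 2 and 3 at 3.63 and 4.66, and Spi1 in KO-iMOS at 7.87 and 5.62 in T1 and 6.22 in T2 replicate 1, all authors' deposited values. Neither gene had a Spi1 peak in a WT-iMOS list of up to 12261 peaks, and neither had one in KO-iMOS T2 replicate 2, whose list held 6372.

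**Figure D3:**
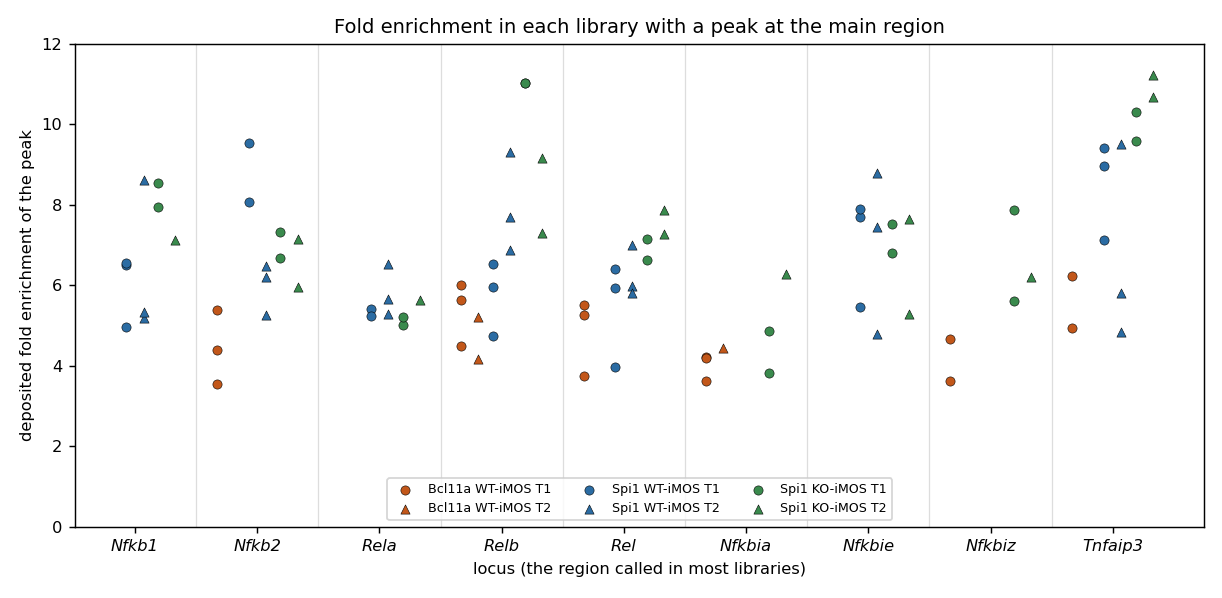
Points give the authors' deposited fold enrichment (linear axis) at the main region of each locus in each library with a peak there, coloured by target and genotype, with circles for T1 and triangles for T2. Absent points are libraries with no peak. Spi1 values at Tnfaip3 in KO-iMOS run from 9.59 to 11.2, while Nfkbia values stay at 3.63 to 6.29.

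Among the 6 members with annotated starts, a peak covered a start in at least 2 libraries at 3 genes for Bcl11a (Nfkb2, Rel and Tnfaip3), at 2 for Spi1 in WT-iMOS (Rel and Tnfaip3) and at 3 for Spi1 in KO-iMOS (Rel, Nfkbie and Tnfaip3). Over 17491 genes with an annotated start the shares were 6.51%, 7.74% and 21.1%.

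The first comparison set Bcl11a against Spi1 within WT-iMOS, 6 libraries each. At Nfkb1 the count was 0 against 6 libraries. It was 2 against 6 at Nfkbie and at Tnfaip3, 3 against 6 at Rel, 1 against 5 at Rela, 3 against 5 at Nfkb2 and 5 against 6 at Relb. Nfkbia (4 against 0) and Nfkbiz (2 against 0) ran the other way. Spi1 was thus seen more often at 7 of the 9 loci. The share of all genes seen more often with Spi1 was not counted, so whether 7 of 9 is usual cannot be told. On average a Spi1 WT-iMOS library had a peak at 25.2% of all genes and a Bcl11a library at 16.8%. The share of libraries was higher for Spi1 by at least 0.5 at 5 of the 9 loci (Nfkb1, Rela, Rel, Nfkbie and Tnfaip3), against 12.3% of all genes. With lists of equal length that held at 1 of the 9, Nfkbie (1 against 5), against 6.09% of all genes. Nfkb1 then stood at 0 against 2, Rela at 1 against 1, Rel at 2 against 3 and Tnfaip3 at 2 against 4. Nfkb2 stood at 2 against 3, Relb at 5 against 4, Nfkbia at 2 against 0 and Nfkbiz at 0 against 0. Spi1 in all 6 with Bcl11a in 0, the Nfkb1 pattern, was seen at 1.3% of all genes. By gene locus, 0 of 21883 genes (0%) passed Fisher's exact test at an adjusted p under 0.05 (Benjamini-Hochberg over all genes). At an unadjusted p under 0.05 there were 59 genes more often with Bcl11a and 797 more often with Spi1. Nfkb1 had p = 0.00216 by Fisher's exact test and an adjusted p of 0.162.

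By region, 618 of 13637 regions tested (4.53%) were called more often with Spi1 and 22 more often with Bcl11a. Of the 11 member regions tested, 2 were called, both toward Spi1: the main regions of Nfkb1 and Nfkbie, each 0 of 6 against 6 of 6 (Fisher's exact test, p = 0.00216, Benjamini-Hochberg adjusted p = 0.0461). The Rela region past the gene end, 0 against 5, had an adjusted p of 0.142 by the same test, and of 0.0367 without Spi1 T1 replicate 3. That library was the only WT-iMOS Spi1 library with no peak there, so leaving it out lowers the p by construction and is no separate support. For the 2 called regions the adjusted p was 0.107 when libraries were permuted within T, and 0.0525 without Bcl11a T1 replicates 2 and 3. Both regions were then at the smallest p these designs allow. It was 0.005 by exact permutation within T and 0.00476 by Fisher's exact test without those replicates. These alternatives therefore cannot decide whether the calls hold. The calls themselves also stood at the smallest p of their comparison. Whether such a p passes depends on how many regions of the genome reach it. With lists of equal length the Nfkb1 region fell to 2 Spi1 libraries of 6 (adjusted p = 0.642) and the Nfkbie region to 5 of 6 (adjusted p = 0.0875), by Fisher's exact test with the same adjustment.

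The genotype comparison set Spi1 in 4 KO-iMOS libraries against 6 WT-iMOS libraries. The WT-iMOS Spi1 libraries are the same ones as in the comparison above. The counts were 4 of 4 against 6 of 6 at Nfkb1, Relb, Rel, Nfkbie and Tnfaip3, and 4 of 4 against 5 of 6 at Nfkb2. Spi1 in all 10 libraries, the pattern of those first 5 genes, was seen at 8.18% of all genes. Rela stood at 3 of 4 against 5 of 6. Nfkbia and Nfkbiz stood at 3 of 4 against 0 of 6, a difference of 75.0 percentage points. The share was higher in KO-iMOS by at least 0.5 at those 2 of 9 loci, against 22.5% of all genes, and lower by as much at 0 of 9, against 2.12%. The members' count toward KO-iMOS was therefore near the background. When the lists had equal length, the counts were 4 of 4 against 3 of 6 at Rel, 3 of 4 against 2 of 6 at Nfkb1, and 4 of 4 against 4 of 6 at Relb and Tnfaip3. Nfkbie stood at 4 of 4 against 5 of 6 and Nfkb2 at 1 of 4 against 3 of 6. Rel was then the 1 member of 9 higher in KO-iMOS by at least 0.5, against 4.23% of all genes.

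**Figure D4:**
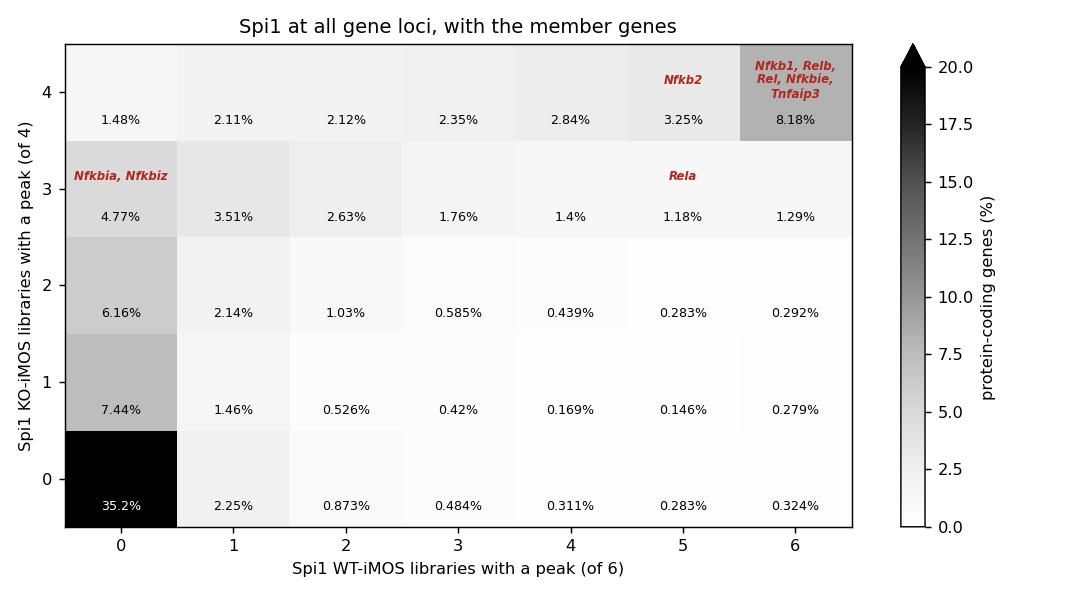
All protein-coding genes are placed by the number of Spi1 WT-iMOS libraries (x axis, of 6) and KO-iMOS libraries (y axis, of 4) with a peak at the locus. Grey level and the printed figure give the percent of genes in each cell (the scale stops at 20%), and member names are in red. Nfkb1, Relb, Rel, Nfkbie and Tnfaip3 share the cell with all 10 libraries, and Nfkbia and Nfkbiz share the cell with 3 KO-iMOS and 0 WT-iMOS libraries, which holds 4.77% of genes.

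Neither Nfkbia nor Nfkbiz passed the test across genes. Fisher's exact test gave p = 0.0333 for Nfkbia and for Nfkbiz, with an adjusted p of 0.487 over all genes. Of all genes, 8.36% had an unadjusted p under 0.05 toward KO-iMOS (1829 genes, with 194 the other way) and 0 (0%) passed the adjusted threshold. The smallest adjusted p of any gene was 0.264. Both loci were called in both KO-iMOS T1 libraries and in 1 of 2 T2 libraries, so that without the T1 libraries the difference was 50.0 percentage points. Without those libraries 6 of the 9 loci had Spi1 in both remaining KO-iMOS libraries, against 24.1% of all genes. When the lists were shortened to 2719 peaks, neither locus had a Spi1 peak in any library of either genotype. Both loci had Bcl11a in at least 2 WT-iMOS libraries. Of the 632 genes with Bcl11a in at least 2 and Spi1 in 0 WT-iMOS libraries, 303 (47.9%) had Spi1 in at least 3 KO-iMOS libraries, as these 2 did.

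Region by region, 9 member regions had Spi1 in KO-iMOS alone and 1 in WT-iMOS alone, against 38.1% and 21.1% of the 34234 merged regions. Of those 9, 6 rested on 1 Spi1 library each. Of the 17 tested, with a peak in at least 2 Spi1 libraries, 7 had a share higher in KO-iMOS by at least 0.5 and 0 a share lower by as much, against 42.7% and 10.3% of the 19539 regions tested. The 7 were the Nfkbia and Nfkbiz regions, the Nfkbie region within Slc35b2 and the 4 Nfkb1 regions named above. Fisher's exact test gave an adjusted p of 0.232 for the first 3 and of 0.247 for the Nfkb1 region seen in all 4 KO-iMOS libraries. No region of the genome (0%) passed, and the smallest adjusted p was 0.107. At an unadjusted p under 0.05 there were 3005 regions toward KO-iMOS and 761 toward WT-iMOS.

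**Figure D5:**
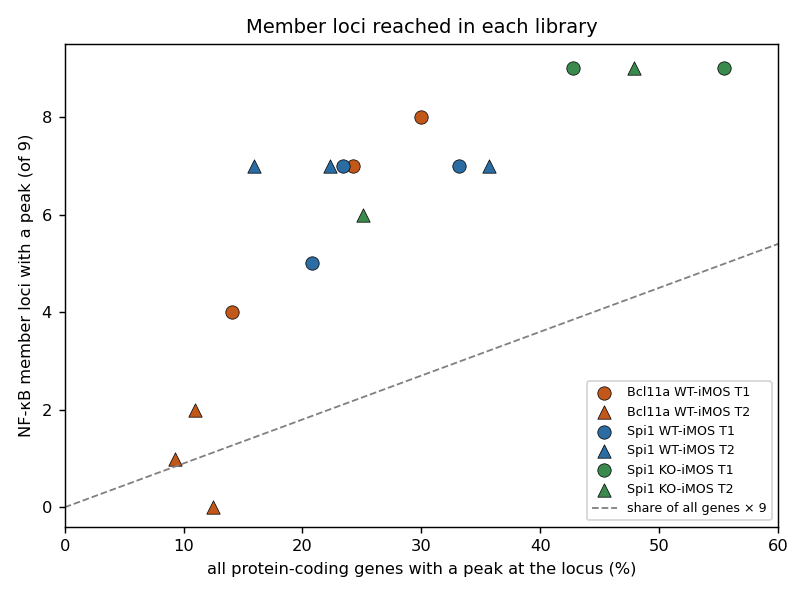
Each point is a library, placed by the percent of all protein-coding genes with a peak at the locus (x axis) and by how many of the 9 member loci had one (y axis), with circles for T1 and triangles for T2. The dashed line is the share of all genes multiplied by 9. Bcl11a T2 replicate 1, at 0 of 9, is the only point below the line.

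The T labels split Bcl11a at these loci. Of 9 loci, 4, 7 and 8 had a Bcl11a peak in the T1 libraries and 0, 1 and 2 in the T2 libraries, so the groups did not overlap. The same libraries had peaks at 14.1%, 24.3% and 30.0% of all genes in T1 and 12.5%, 9.30% and 10.9% in T2. With the full lists the shares of all genes thus did not overlap either. T1 replicate 1 and T2 replicate 1 had lists of like length, 4300 and 4786 peaks, and held 4 and 0 member loci. With all lists shortened to 2719 peaks the counts were 2, 5 and 6 against 0, 1 and 1. Those shortened lists had peaks at 8.92% to 12.6% of all genes in T1 and 7.32% to 9.30% in T2, so the shares of all genes overlapped. Relb was the member with most T2 libraries, 2 of 3, followed by Nfkbia with 1. The share was lower in T2 by at least 0.5 at 6 of the 9 loci, against 11.3% of all genes. No gene passed Fisher's exact test (0 of 21883, 0%, adjusted or unadjusted), since 3 against 3 libraries cannot give a p below 0.10. Leaving out T1 replicates 2 and 3, a choice made after the data were seen, left 2 members with Bcl11a in at least 2 libraries. The share of all genes under that choice is not given here.

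For Spi1 the counts of member loci overlapped between T1 and T2. In WT-iMOS 7, 7 and 5 loci had a peak in T1 and 7, 7 and 7 in T2. In KO-iMOS all 9 had one in both T1 libraries, and 9 and 6 in the T2 libraries. Over both genotypes Nfkb1, Relb, Rel, Nfkbie and Tnfaip3 stood at 5 of 5 T1 and 5 of 5 T2 libraries. Nfkb2 stood at 4 T1 and 5 T2, Rela at 4 and 4, and Nfkbia and Nfkbiz at 2 and 1. Across all genes 0 (0%) passed the adjusted threshold by exact permutation within genotype, and 8 had an unadjusted p under 0.05, all lower in T2.

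Beyond the 9 members, 63 other genes of the pathway were looked at. Spi1 was at 36 of the 63 loci in at least 2 WT-iMOS libraries and at 51 in at least 2 KO-iMOS libraries, and Bcl11a was at 32. Over all genes the shares were the 33.5%, 49.8% and 25.4% given above. The share of Spi1 libraries was higher in KO-iMOS by at least 0.5 at 18 of the 63 (28.6%) and lower at 1, Gadd45b, a stress-response gene, with 0 of 4 against 3 of 6. The first of these lies near the 22.5% of all genes, and 2.12% of all genes were lower. None passed the adjusted test (Fisher's exact test, Benjamini-Hochberg). These counts share the WT-iMOS and KO-iMOS libraries and their unequal lengths with the members' counts. With lists of equal length they were 18, 19 and 16 of 63, against 12.9%, 12.5% and 14.5% of all genes, with 4 higher in KO-iMOS by at least 0.5 (6.35%, against 4.23%). The counts by group below stand beside the same shares of all genes, and a group of 5 to 19 genes is described, not tested.

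Of 5 other IkB proteins and Rel-domain relatives, all 5 had Spi1 in at least 2 KO-iMOS libraries (49.8% of all genes) and 3 in at least 2 WT-iMOS libraries (33.5%). These counts were 0 and 1 with lists of equal length. Bcl3, a nuclear IkB protein, and Nfkbil1 each had a peak in 12 of 16 libraries, Nfkbid, another nuclear IkB protein, in 11, and the Rel-domain factor Nfat5 in 4. Nfkbib, the gene of IkB-beta, had Spi1 in 0 of 6 WT-iMOS and 3 of 4 KO-iMOS libraries, the same counts as Nfkbia and Nfkbiz (p = 0.0333 and adjusted p = 0.487 by Fisher's exact test). Bcl3 stood at 3 of 6 against 4 of 4.

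The next group of 6 genes took in the IKK complex together with related kinases and a scaffold. Of these 6, 5 had Bcl11a and 4 had Spi1 in at least 2 WT-iMOS libraries, against 25.4% and 33.5% of all genes. With lists of equal length the counts were 1 and 0. Chuk and Ikbkb, the catalytic kinases of the complex, each had Bcl11a in 2 and Spi1 in 5 WT-iMOS libraries. Both had Spi1 in all 4 KO-iMOS libraries. Tbk1, a related kinase, had Bcl11a in 5 libraries and Spi1 in 3 of 6 against 4 of 4, and Tank, its scaffold, had Spi1 in 5 of 6 WT-iMOS and 2 of 4 KO-iMOS libraries.

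Of 19 upstream kinases and adaptors, 9 had Bcl11a in at least 2 libraries, 11 had Spi1 in at least 2 WT-iMOS libraries and 14 in at least 2 KO-iMOS libraries, against 25.4%, 33.5% and 49.8% of all genes. They became 4, 4 and 6 with lists of equal length. Map3k14, the kinase of the non-canonical arm, and Malt1, the paracaspase of antigen receptor signalling, matched Relb in having peaks in 15 of 16 libraries. Bcl10, the partner of Malt1, had them in 13, and the adaptor Traf5 in 12. Ripk1, a death-domain kinase, had Spi1 in 0 of 6 WT-iMOS and 4 of 4 KO-iMOS libraries (p = 0.00476, adjusted p = 0.264, Fisher's exact test) and had Bcl11a in all 3 T1 libraries. Traf2 stood at 1 of 6 against 4 of 4, and Irak1 at 0 of 6 against 2 of 4.

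A further group held ubiquitin ligases, deubiquitinases and proteins that work with them, to which Tnfaip3 belongs by function. Spi1 was there in at least 2 WT-iMOS libraries at 5 of 14 loci and in at least 2 KO-iMOS libraries at 14 of 14. Those counts stand against 33.5% and 49.8% of all genes. The share was higher in KO-iMOS by at least 0.5 at 9 of the 14, against the 22.5% of all genes given above. With lists of equal length, 3 of the 14 had Spi1 in at least 2 WT-iMOS libraries, 4 in at least 2 KO-iMOS libraries, and 1 was higher in KO-iMOS by at least 0.5. Sharpin, a subunit of the linear ubiquitin ligase, and Tnip2, an A20-binding protein, each stood at 0 of 6 against 4 of 4 (p = 0.00476, adjusted p = 0.264, Fisher's exact test). Itch, a ligase that works with A20, stood at 0 of 6 against 3 of 4. Birc3, Rnf31, Cyld and Zc3h12a were occupied by Spi1 in both genotypes, with peaks in 14, 14, 13 and 12 of the 16 libraries.

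Among 19 textbook target genes, 13 had Spi1 in at least 2 WT-iMOS libraries, 14 in at least 2 KO-iMOS libraries and 8 had Bcl11a in at least 2, against 33.5%, 49.8% and 25.4% of all genes. The equal-length counts were 10, 8 and 5. Irf1 had a peak in 15 libraries. Junb and the neighbouring chemokine genes Ccl3 and Ccl4, whose loci lie on the same chromosome, had them in 14. Sod2, a mitochondrial antioxidant enzyme, had Spi1 in 0 of 6 WT-iMOS and 3 of 4 KO-iMOS libraries, as Nfkbia did, and Bcl11a in 3 of 6 libraries against 4 of 6 at Nfkbia. Cxcl2, a neutrophil chemokine, stood at 2 of 6 against 4 of 4 and Bcl2a1b at 1 of 6 against 3 of 4.

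The genes whose pattern over the 16 libraries was most like each member were taken by the number of libraries that matched in having a peak, then by the mean difference in within-list percentile. Nfkbia's pattern was the least common: 1 gene, Ano1, matched it in all 16 libraries, and Fancg and Vcp, both on chromosome 4 and with the same mean difference, matched in 15. Rela's was matched in all 16 by 5 genes, with Slc25a46, Slc24a3 and Asxl2 the closest, and Nfkb2's by 7, led by Dnmt1, Tmem134 and Mki67. The patterns of Nfkbiz and Rel were matched by 100 and 107 genes, the nearest being Mmp28, Taf15 and Gm10461 for Nfkbiz (the first 2, on chromosome 11, had the same mean difference) and Nufip2, Dcakd and Tnrc6b for Rel. Those of Nfkb1, Nfkbie and Tnfaip3 were matched by 251, 250 and 251 genes. The closest were Mfsd6, Csf2rb and Gm38396 for Nfkb1, Cdhr2, Txlna and Kif1c for Nfkbie, and Mcl1, Crebrf and Hspa9 for Tnfaip3. The points share libraries and list lengths, so these matches are descriptions. Relb, with 15 of 16 libraries, was too common for the measure to be used.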

How the data were processed

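Libraries were grouped by the target in the title and the genotype label, with replicate numbers from the titles. All 16 libraries were used. The authors deposited 1 narrowPeak list for each, made without pooling. Per the submitters' processing notes the tools were Bowtie2, SAMtools and MACS2, on mm10, with no versions. Whether peaks were called against a control sample is not stated there. Each deposited line gives a score, a fold enrichment (a ratio to the caller's local background), −log10 values for p and q, and the summit's offset. These −log10 p-values, q-values and fold enrichments come from the authors and served to rank, filter and describe peaks within a list. The lists hold no read counts, so depth is unknown and no counting interval is given.

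The members and gene lists were chosen with earlier results of these data known, so counts over them are descriptions. Of 131939 deposited peaks, 130097 lay on assembled chromosomes and were used. Genes were 21883 protein-coding genes of a RefSeq table on GRCm38.p6. That table gives gene ends but no exons, so exon, intron and UTR are not stated. Starts and sequences came from a RefSeq promoter table of the same assembly, with 17491 genes. A region was tested when at least 2 compared libraries had a peak in it. Presence of a peak was compared by Fisher's exact test, two-sided, and for Spi1 by T with exact permutation within genotype. Benjamini-Hochberg adjustment ran over all genes or regions, at a threshold of 0.05. Code was tested on simulated data. At most 60 intervals were identical between any 2 lists.

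All members are named. Of the pathway genes, the 4 per role with most libraries were named, and up to 3 whose Spi1 share differed by at least 0.5. Merged regions in at least 3 libraries are given by position. For members with a peak in 3 to 13 libraries the 3 most similar genes whose loci do not overlap the member's were named. Alternatives were a −log10 q of at least 5, lists of equal length, flanks of 5 kb or none, merging rules, T or replicate number as stratum, the other two-sided rule, and leaving out libraries. Python 3.11.15, numpy 2.4.6, pandas 2.3.3, scipy 1.17.1 and matplotlib 3.10.9 were used.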

Additional observations from a re-analysis of the deposited data

Results flagged for a closer look

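Of 21 sets of 4 to 10 values that were looked at, 2 held a library apart from the others of its arm by Dixon's criterion. In both sets the other libraries had tied counts, so any single differing count would have been flagged. The criterion's usual rate of about 1 in 20 sets does not hold for such counts. Spi1 WT-iMOS T1 replicate 3 had a peak at 5 of the 9 member loci, while each of the 5 other WT-iMOS Spi1 libraries had 7. The loci it lacked beyond Nfkbia and Nfkbiz were Nfkb2 and Rela, and its list held 6795 peaks, a length between those of libraries that had both. Spi1 KO-iMOS T2 replicate 2 had a peak at 6 loci against 9 in the other 3 KO-iMOS libraries, and lacked Rela, Nfkbia and Nfkbiz. Its list of 6372 peaks was the shortest of the 4, against 13053 to 20241, and the part of list length in this count was not tested.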

How the results depend on the processing

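The lists hold no read counts, so depth limits every count of libraries in an unknown degree, and list length is the closest measure of it. With lists of equal length, members with Spi1 in at least 2 KO-iMOS libraries fell to 5, pathway genes to 16 for Bcl11a, 18 for Spi1 in WT-iMOS and 19 in KO-iMOS, and those higher in KO-iMOS to 4. KO-iMOS minus WT-iMOS then turned to -25 percentage points at Nfkb2 (locus and region) and 16.7 at the main Nfkb1 region, and Bcl11a minus Spi1 to 16.7 at Relb (locus and region). At the main regions of Nfkb1 and Nfkbie, Bcl11a minus Spi1 was then -33.3 and -83.3, and it was -100 under every other alternative that gave a value. The 640 regions called for Bcl11a against Spi1 became 0 with the replicate block, 0 with T as stratum and 0 without Bcl11a T1 replicates 2 and 3, an alternative added after the data were seen, and 648 to 881 without any single library. With the replicate block both regions had p = 0.03125 and an adjusted p of 0.585 by exact permutation. That p is the smallest the block allows. The T stratum and the lists without Bcl11a T1 replicates 2 and 3 have such a floor too. The 0 counts under these 3 alternatives therefore cannot decide whether the calls hold. The main calls of both regions stood at such a floor too. Their p = 0.00216 and adjusted p = 0.0461 by Fisher's exact test were the smallest of that comparison. Replicate numbers did not pair Bcl11a with Spi1 libraries: same-numbered deviations correlated at -0.110 to 0.00157 in T1 and -0.0490 to -0.0133 in T2. There 0 of 3 libraries correlated best with their own number. Between T1 and T2, 3 of 3 did for Spi1 in WT-iMOS (0.0437 to 0.258) and 2 of 2 in KO-iMOS (0.133), but 1 of 3 for Bcl11a. For Spi1 in WT-iMOS against KO-iMOS, 2 of 3 did in T2 (0.0975 to 0.175) and 1 of 3 in T1. Without single libraries, members with Bcl11a in at least 2 ranged from 4 to 7 (4 without T1 replicate 2 or 3) and pathway genes from 19 to 32, with 21 and 19 without those libraries. Without both, they were 2 and 13. Over all genes the share with Bcl11a in at least 2 libraries ranged from 17.6% to 24.7% without single libraries. Pathway genes with Spi1 ranged from 34 to 36 in WT-iMOS and 44 to 50 in KO-iMOS, and were 29 in KO-iMOS without its T1 libraries. Rela's KO-iMOS difference became 25 with the gene body alone and 16.7 (locus and region) without KO-iMOS T2 replicate 2. T2 minus T1 became 20 at Nfkbia and Nfkbiz without the KO-iMOS T1 libraries. The causes were not tested. The other 5 comparisons across genes or regions had 0 calls under every alternative run.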
